A study of Mus musculus with 14 samples.

Results

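Mitosis and spindle genes in mouse bone marrow-derived macrophages (BMDMs) are described here across 4 groups of RNA sequencing libraries. The 51 genes were taken by symbol from a table of 25239 gene symbols, and the deposited counts of the distinct exons of each symbol were summed. All 51 were found and all 51 passed the filter on low counts, so they stand here among 13311 tested genes. The KO groups are macrophages from Ezh2fl/fl;LysM-Cre+/- mice, in which the Cre driven by the myeloid lysozyme M gene removes floxed Ezh2, the catalytic subunit gene of Polycomb repressive complex PRC2, from myeloid cells. The WT groups are macrophages of littermate controls, whose alleles are not given in the sources used here. KO cells were kept for 24 h in medium conditioned by Hepa1-6, a mouse hepatoma line (CM, 3 libraries), or in complete DMEM (control medium, 3 libraries), and WT cells likewise in CM (4 libraries) or control medium (4 libraries). Before that, marrow cells of all groups had grown for 7 to 10 days in 20% medium of L929 cells, a usual source of the macrophage growth factor M-CSF, with horse serum (5%) and fetal bovine serum (10%). The libraries hold no group in medium conditioned by another cell type, so the values describe CM against fresh medium and not against a conditioned medium of other cells. The ages and sexes of the mice are not used here, and whether each library stands for its own mouse is not stated in the labels. P-values therefore rest on the spread among the libraries at hand, which may be technical.

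In mitosis the kinase CDK1, bound to cyclin B and activated by CDC25 phosphatases, starts chromosome condensation and spindle assembly. Kinetochores then attach chromosomes to spindle microtubules while the spindle checkpoint kinases hold back the anaphase-promoting complex (APC/C), and CDC20 later activates that complex so that securin and cyclin B are destroyed and chromatids separate. Most of these genes are transcribed late in the cell cycle, held down in resting cells by the DREAM complex and switched on by MuvB with B-MYB and FOXM1 through CHR elements and CCAAT boxes in their promoters. Macrophages grown from marrow can still divide in response to M-CSF, and a set of mitotic transcripts is a usual sign of the dividing cells in such a culture. In bulk RNA, more dividing cells and more mitotic RNA per dividing cell cannot be told apart.

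RefSeq promoters on GRCm38.p6, the build of the same coordinates as mm10, were matched by symbol for 43 of the 51 genes and gave 45 promoters of 300 bases, from 250 before the start site to 50 from it on. A CHR element, searched as TTTGAA or TTCGAA on both strands, was in 36 of the 45 (80.0%), against 14.3% of the 13204 promoters of tested genes and 19.2% of all 32851 promoters. A CCAAT box, searched as CCAAT on both strands, was in 34 (75.6%), against 38.1% and 37.4%. Both motifs stood together in 31 promoters (68.9%), against 6.0% and 7.5%. In 34 of the 36 promoters with a CHR match the nearest one began within 50 bases of the start site, at a median of 4.5 bases past it. Taking the nearest match draws that median toward the start, and the share within 50 bases was not measured over all promoters. A CHR match from 100 bases before to 50 after the start was in 35 of the 45 (77.8%), against 5.6% and 8.6%. The 79 CCAAT matches had a median position 62 bases before the start (-62). An E2F site, searched as TTTCGCGC or TTTGGCGC, was in 2 of the 45 (4.4%), those of Cdk1 and Kif15, against 1.5% and 0.8%. In 1 case matches of 2 different motifs shared bases. A match of these letters is a description and not a bound site. Birc5, Nuf2, Nusap1, Melk, Arhgef39 and Pttg1 held none of the 3 motifs in this window. The window of Arhgef39 (chr4:43508698-43508997, minus strand) lies outside the GENCODE M21 span of that gene (chr4:43496142-43499695), upstream of it. Which start site these cells use was not tested. The 10 stretches printed here, each from 120 bases before the RefSeq start site to the 20 bases that begin there, each hold a CHR element near the start and 1 or more CCAAT boxes before that element. Cdc20 also has a CCAAT box between its CHR element and the start (first base at -8), and Top2a has a further CHR match at -120, ahead of its CCAAT boxes in the stretch. Capitals mark the CHR letters (TTTGAA or TTCGAA, or reversed as TTCAAA) and the CCAAT letters (CCAAT, or reversed as ATTGG). They are from Ccnb2 (chr9:70421535-70421674, minus strand), Cdc20 (chr4:118437324-118437463, minus), Bub1 (chr2:127831840-127831979, minus), Cenpf (chr1:189688067-189688206, minus), Kif18b (chr11:102925105-102925244, minus), Hmmr (chr11:40733418-40733557, minus), Aspm (chr1:139454653-139454792, plus), Racgap1 (chr15:99651637-99651776, minus), Top2a (chr11:99024170-99024309, minus) and Kif23 (chr9:61946780-61946919, minus).
Ccnb2: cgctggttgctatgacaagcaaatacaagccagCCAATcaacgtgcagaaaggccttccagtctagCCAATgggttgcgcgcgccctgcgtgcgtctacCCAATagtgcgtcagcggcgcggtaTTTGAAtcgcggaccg
Cdc20: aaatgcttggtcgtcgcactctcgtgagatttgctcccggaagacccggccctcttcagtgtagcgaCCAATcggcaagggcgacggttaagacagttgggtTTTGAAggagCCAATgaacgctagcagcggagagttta
Bub1: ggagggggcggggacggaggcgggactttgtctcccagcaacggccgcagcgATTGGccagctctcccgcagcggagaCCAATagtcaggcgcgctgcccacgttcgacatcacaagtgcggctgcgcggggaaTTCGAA
Cenpf: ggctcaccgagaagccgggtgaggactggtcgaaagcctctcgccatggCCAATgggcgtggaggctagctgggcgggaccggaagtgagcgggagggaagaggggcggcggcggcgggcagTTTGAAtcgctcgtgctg
Kif18b: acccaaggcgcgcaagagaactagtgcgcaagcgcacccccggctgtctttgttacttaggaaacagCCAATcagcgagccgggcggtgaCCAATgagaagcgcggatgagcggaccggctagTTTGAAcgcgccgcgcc
Hmmr: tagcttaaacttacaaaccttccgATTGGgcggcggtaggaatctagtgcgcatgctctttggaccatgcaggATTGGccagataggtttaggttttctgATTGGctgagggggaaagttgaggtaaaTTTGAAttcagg
Aspm: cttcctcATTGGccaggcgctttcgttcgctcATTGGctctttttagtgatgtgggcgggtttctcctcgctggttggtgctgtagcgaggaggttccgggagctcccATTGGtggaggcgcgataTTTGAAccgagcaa
Racgap1: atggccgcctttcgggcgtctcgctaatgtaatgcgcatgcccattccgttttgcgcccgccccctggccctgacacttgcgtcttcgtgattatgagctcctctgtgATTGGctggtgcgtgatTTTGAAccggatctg
Top2a: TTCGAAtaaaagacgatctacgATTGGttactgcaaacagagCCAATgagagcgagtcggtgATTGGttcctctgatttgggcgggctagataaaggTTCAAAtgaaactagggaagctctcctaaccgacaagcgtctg
Kif23: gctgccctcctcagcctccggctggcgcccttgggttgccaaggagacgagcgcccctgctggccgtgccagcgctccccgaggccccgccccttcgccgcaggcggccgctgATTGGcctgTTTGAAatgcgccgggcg

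The nearness of the CHR element to the start is shared by genes of different roles in these stretches, from cyclin B2 to the cytokinesis regulator Racgap1. Ccnb2 carries 3 CCAAT boxes and Hmmr 3 inverted ones ahead of the CHR letters, whereas Kif23 carries 1 inverted box directly before them. Top2a is the exception in orientation, with its CHR letters nearest the start on the opposite strand, 23 bases before it (-23).

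**Figure D1:**
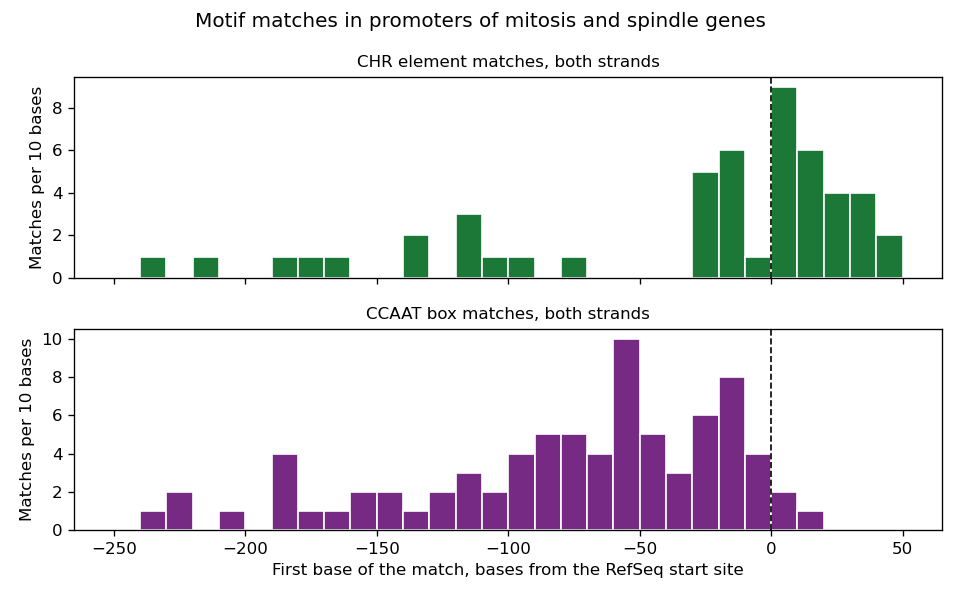
Positions of motif matches in 45 promoters of 43 mitosis and spindle genes, as matches per 10 bases (vertical axes) against the first base of the match in bases from the RefSeq start site (horizontal axis, dashed line at 0). CHR matches (upper panel) gather around the start, with a median of 4.5 for the nearest match of each promoter, and CCAAT matches (lower panel) lie before it, with a median of -62.

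Libraries held 40.2 to 61.5 mega-counts (M) over exons in KO CM, 41.8 to 54.4 M in KO control, 41.3 to 85.8 M in WT CM and 45.2 to 82.1 M in WT control. WT libraries 3 and 4 of both media, the deepest, stood apart from the other 10 in how counts were spread over exons (0.400 to 0.445 against -0.204 to -0.148 on a first principal component that held 44.9% of the variance of exon shares, over 113653 exons), so results between genotypes are also given against WT libraries 1 and 2 alone. The knockout was described by 2 Ezh2 exons of 85 and 81 bases, picked as those that the knockout lowers. They held 5 to 20 counts in KO CM, 1 to 20 in KO control, 99 to 169 in WT CM and 84 to 143 in WT control libraries. Picked in this way, they are not a test of the knockout. Over all exons the mean level of Ezh2 was 27.1 CPM in KO CM against 35.7 in WT CM. In control medium it was 18.6 CPM in KO against 23 in WT. All 8 macrophage markers had counts in every group, and their summed level was 19200 to 19900 CPM in KO CM, 21300 to 22000 in KO control, 29400 to 32400 in WT CM and 30300 to 35800 CPM in WT control. Most of that gap was Lyz2, the locus that carries the Cre, which fell by 1.10 on the log2 scale in KO control cells against WT control (edgeR adjusted p = 9.46e-07) and by 1.11 in KO in CM (edgeR adjusted p = 1.83e-06). Hepatocyte markers were counted as a check for RNA of Hepa1-6 cells: Alb was at 0 in all 14 libraries, and their summed level, nearly all Trf, was 404 to 461 CPM in KO CM against 775 to 881 in KO control, and 439 to 479 CPM in WT CM against 721 to 787 in WT control. Fibroblast markers summed to at most 1.18 CPM in any library. Markers of neutrophils and their precursors were weak, and their members went both ways with CM: of 6 tested, 2 rose and 2 fell in KO (median -1.09), and 2 rose and 1 fell in WT (median -0.32). They had counts for 8 of 10 in KO CM, 7 in KO control, 9 in WT CM and 8 in WT control, and sums of 3.39 to 5.57 CPM in KO CM against 1.44 to 4.03 in KO control and 4.17 to 5.82 CPM in WT CM against 1.37 to 2.56 in WT control. Mpo was at 0 in KO CM and in both control groups. Early progenitor markers summed to 5.89 to 8.66 CPM in KO CM against 4.55 to 5.58 in KO control, and to 6.29 to 8.84 CPM in WT CM against 4.44 to 7.46 in WT control, with counts for 4 of 5 in both CM groups, where Flt3 was at 0, and for 5 in both control groups. Of 4 tested, 2 rose (Kit and Cd34) and 1 fell (Flt3) in KO, with a median of 0.56, and 1 rose (Cd34) and 1 fell (Flt3) in WT, with a median of 0.07. The part of these markers in the results was not tested.

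Levels are given in CPM, counts per M after TMM scaling of the totals, and changes are log2 fold changes ± SE from an edgeR quasi-likelihood fit, with Benjamini-Hochberg adjusted p-values over all tested genes and calls at an adjusted p below 0.05. The 51 genes together held 1930, 2002 and 2231 CPM in the 3 KO CM libraries, 712.3, 758 and 799.5 CPM in the KO control libraries, 1293, 1388, 1388 and 1597 CPM in the WT CM libraries and 549.4, 554.1, 581 and 628 CPM in the WT control libraries. No library of one group reached into the range of another. The mean sum was 2.71 times as high in KO CM as in KO control, 2.45 times as high in WT CM as in WT control, 1.45 times as high in KO CM as in WT CM and 1.31 times as high in KO control as in WT control. In 45 of the 51 genes (88.2%) the group means ran from KO CM, the highest, through WT CM and KO control down to WT control, an order that 1450 of the 13311 tested genes (10.9%) had. The exceptions were Cdk1, Pbk, Aurkb, Cdca8, Pttg1 and Kif23. Replicates were close: the median SD was 9.0% of the mean in KO CM, 10.3% in KO control, 11.8% in WT CM and 14.1% in WT control, with Spc24, a weakly expressed kinetochore gene, the most variable in 3 of the 4 groups (21.8, 23.2 and 41.6%) and Depdc1a in WT control (44.5%).

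**Figure D2:**
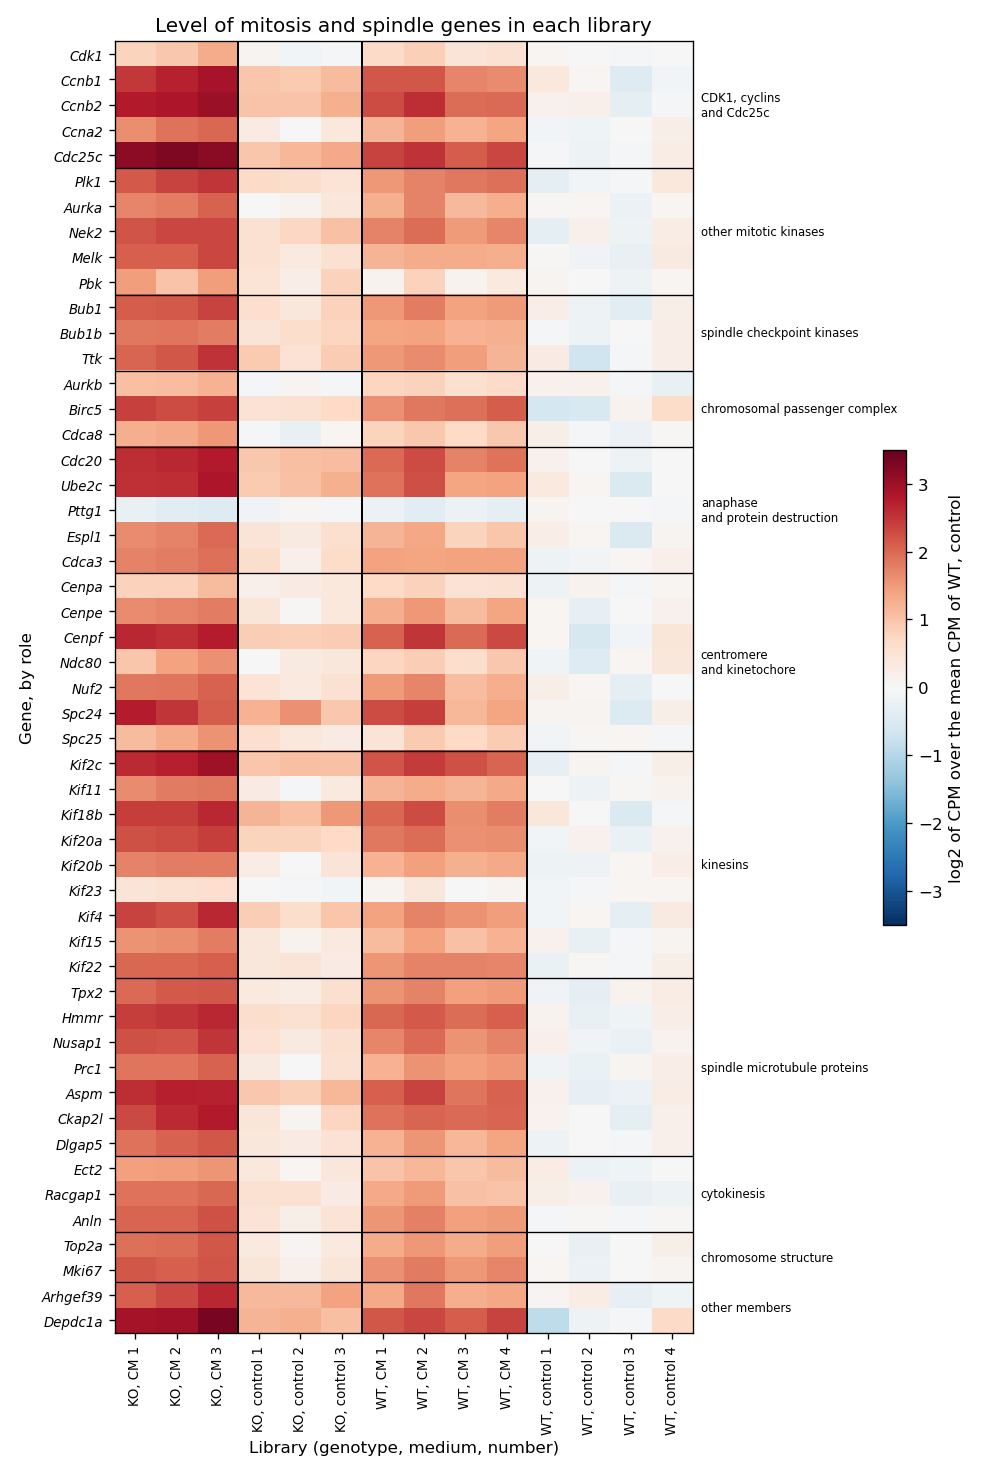
Level of each of the 51 genes (rows, grouped by role) in each of the 14 libraries (columns, in the order KO CM, KO control, WT CM and WT control), as log2 of CPM over the mean CPM of WT in control medium. The CM columns are red in nearly every row, deeper in KO than in WT, the KO control columns are pale red for many genes, and Pttg1 is the row that turns pale blue in CM.

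Per kb of distinct exon, which can overlap and so overstate a gene's length, the members spanned a wide range of mean level over the 14 libraries. Cenpa, the centromeric histone H3 variant, was highest at 40.1 CPM per kb, followed by the APC/C-linked ubiquitin-conjugating enzyme gene Ube2c at 29.7, Ccnb2 at 20.1 and Top2a at 19.7 CPM per kb. Depdc1a (1.21), Cenpf (1.46) and Espl1, which encodes separase (1.50), were the lowest in CPM per kb.

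The first question was what CM did to each genotype. In both, almost the whole set rose: in KO macrophages 50 of 51 genes were called higher in CM, where 20.0% of tested genes were, and 1 was called lower, where 18.2% were. In WT macrophages 48 were called higher, where 19.3% of tested genes were, 1 lower, where 18.0% were, and 2 were not called. The median change of the 51 was 1.59 in KO (range -0.32 to 2.14) and 1.46 in WT (range -0.27 to 2.33), against -0.01 over all tested genes in each. Scaled by library totals alone, the shares of all tested genes were 14.6% higher and 27.2% lower in KO, with a median over all genes of -0.12, and 14.7% higher and 26.3% lower in WT, with a median of -0.09, and the counts among the 51 stayed 50 and 1 in KO and 48 and 1 in WT. Every CM library lay above every control library for 50 of the genes in KO, where 27.5% of tested genes did so, and for 49 in WT, where 17.6% did. The 48 genes called higher in WT were all among the 50 called higher in KO (100.0% of the WT calls and 96.0% of the KO calls), and the 2 called in KO alone were Kif23 and Pbk. All 50 in KO and all 48 in WT stayed called higher in each of 27 alternative fits or thresholds, 14 of them leaving out 1 library. Of 806 exons of these genes with 200 or more counts, 797 had a higher group mean in CM in KO (98.9%) and 796 in WT (98.8%). Exons of 1 gene share transcripts and can share fragments, so they are not separate checks. The share over exons of all tested genes was not measured.

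**Figure D3:**
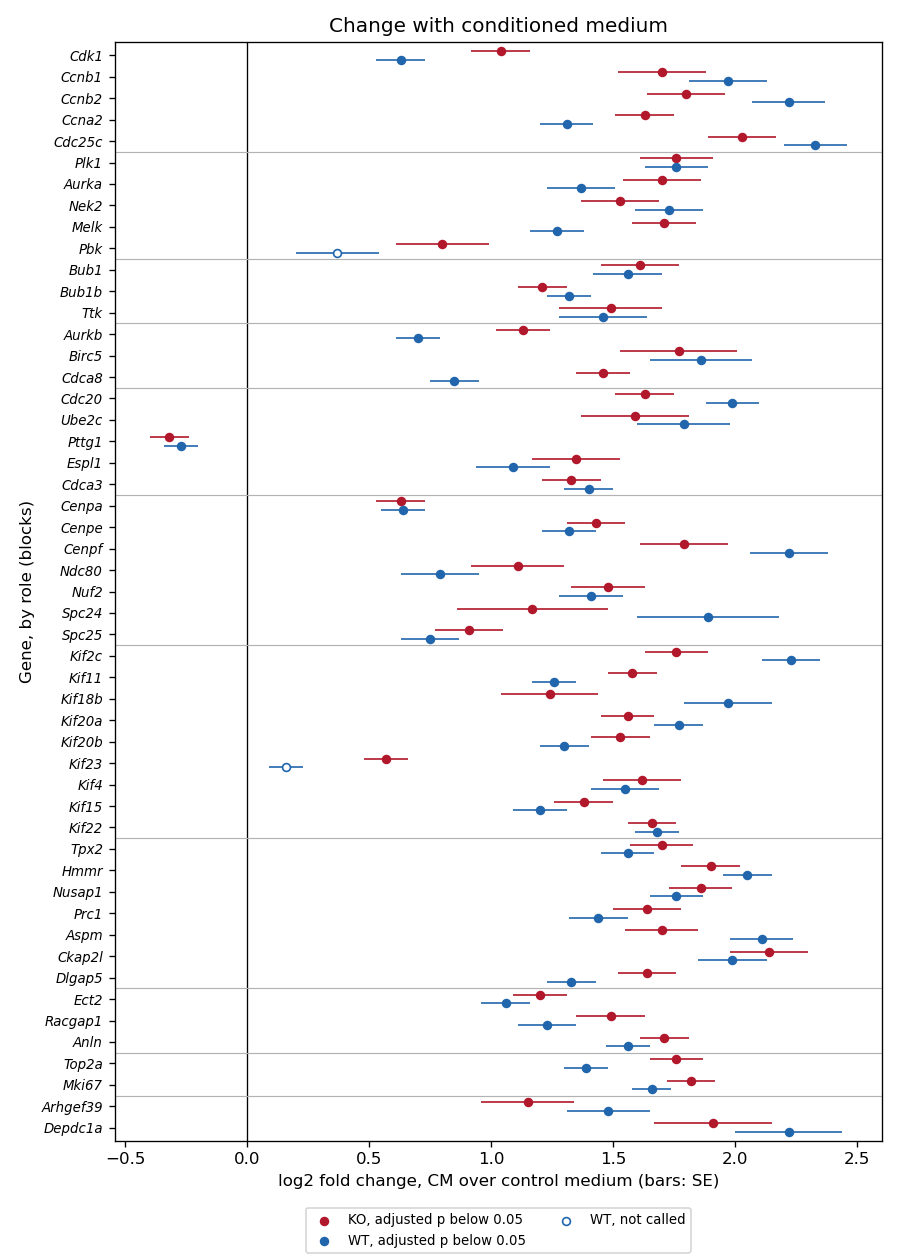
Change with CM for each of the 51 genes (rows, in blocks by role) as log2 fold change of CM over control medium with its SE, KO in red and WT in blue. Filled points passed at an adjusted p below 0.05, and the open WT points of Pbk and Kif23 did not. All points except those of Pttg1 lie right of 0.

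Among CDK1, its cyclins and Cdc25c, all 5 rose in both genotypes. Ccnb2, which encodes cyclin B2, was at 57.9, 60.4 and 68.8 CPM in KO CM against 16.8, 17.0 and 20.0 in KO control, and at 41.2, 50.6, 32.6 and 33.6 CPM in WT CM against 9.49, 9.65, 6.63 and 8.15 in WT control. Its lowest CM library stood well above its highest control library in either genotype (1.80 ± 0.16 in KO, edgeR adjusted p = 3.62e-07, and 2.22 ± 0.15 in WT, edgeR adjusted p = 7.78e-09). Cdc25c, the phosphatase gene, had the largest WT change of the whole set: 8.17, 9.02 and 8.27 CPM in KO CM against 1.82, 2.10 and 2.33 in KO control, and 4.84, 5.35, 4.04 and 4.70 CPM in WT CM against 0.912, 0.822, 0.887 and 1.11 in WT control (2.03 ± 0.14 in KO and 2.33 ± 0.13 in WT). Cdk1 itself moved least of the 5, by 1.04 ± 0.12 in KO and 0.63 ± 0.10 in WT (edgeR adjusted p = 5.51e-06 and 0.000175), and its 4 WT control libraries, at 15.1 to 16.1 CPM, already stood at the level of the KO control libraries (14.3 to 16.4 CPM).

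Of the 5 other mitotic kinases, all rose in KO and 4 in WT. Plk1, the polo-like kinase of mitotic entry and centrosomes, was at 25.3, 29.3 and 32.0 CPM in KO CM against 9.06, 8.66 and 7.90 in KO control, and at 16.3, 19.0, 20.5 and 21.6 CPM in WT CM against 4.58, 5.36, 5.52 and 7.27 in WT control. In both genotypes its CM libraries lay well above the control libraries (1.76 ± 0.15 in KO and 1.76 ± 0.13 in WT). Pbk, a MAPKK-like mitotic kinase gene, rose in KO (0.80 ± 0.19, edgeR adjusted p = 0.00365) and had 0.37 ± 0.17 in WT (edgeR adjusted p = 0.101). The spindle checkpoint kinases Bub1, Bub1b and Ttk all rose in both. Bub1b, which encodes BUBR1, was at 46.9 to 49.5 CPM in KO CM against 18.7 to 23.0 in KO control and at 31.9 to 36.4 CPM in WT CM against 12.0 to 15.9 in WT control. Bub1 had the larger WT change of the 2 (1.61 ± 0.16 in KO and 1.56 ± 0.14 in WT, against 1.21 ± 0.10 and 1.32 ± 0.09 for Bub1b).

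In the chromosomal passenger complex, which corrects attachments under Aurora B, the 3 genes rose in both genotypes by unequal amounts. Birc5, which encodes survivin, changed by 1.77 ± 0.24 in KO and 1.86 ± 0.21 in WT. Cdca8, which encodes borealin, was at 31.7, 32.6 and 37.7 CPM in KO CM against 12.5, 11.0 and 13.7 in KO control (1.46 ± 0.11), and at 22.5, 25.0, 21.2 and 25.3 CPM in WT CM against 14.96, 12.7, 11.3 and 13.4 in WT control (0.85 ± 0.10). Aurkb itself changed by 1.13 ± 0.11 in KO and 0.70 ± 0.09 in WT. The KO value was the larger for Cdca8 and Aurkb, a difference taken up with the interaction.

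Genes of anaphase and protein destruction held the exception to the rise. Cdc20, the APC/C activator, was at 31.6, 32.7 and 36.4 CPM in KO CM against 10.2, 11.1 and 11.3 in KO control (1.63 ± 0.12), and at 20.8, 25.6, 17.6 and 19.9 CPM in WT CM against 5.84, 5.36, 4.65 and 5.28 in WT control (1.99 ± 0.11). Ube2c, Espl1 and Cdca3, an adaptor gene of mitotic entry, rose with it. Pttg1, which encodes securin, the inhibitor of separase, fell instead: it was at 28.4, 25.7 and 24.9 CPM in KO CM against 30.9, 35.2 and 32.4 in KO control, and at 29.7, 26.3, 29.6 and 27.2 CPM in WT CM against 36.2, 33.3, 33.9 and 32.4 in WT control. The CM libraries lay below all control libraries in both genotypes, where 27.1% of tested genes did so in KO and 16.2% in WT, by a small margin (-0.32 ± 0.08 in KO, edgeR adjusted p = 0.00364, and -0.27 ± 0.07 in WT, edgeR adjusted p = 0.00469). The WT call was lost with WT libraries 3 and 4 alone (-0.22, edgeR adjusted p = 0.0553).

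All 7 centromere and kinetochore genes rose in both genotypes. Cenpa was at 92.1, 91.4 and 114 CPM in KO CM against 59.1, 64.3 and 68.1 in KO control, and at 85.6, 91.4, 74.5 and 75.1 CPM in WT CM against 46.2, 56.7, 51.3 and 54.8 in WT control. The groups did not overlap, yet its change was the smallest of the 7 (0.63 ± 0.10 in KO and 0.64 ± 0.09 in WT). Cenpf, a large kinetochore-associated protein gene, had the largest (1.79 ± 0.18 in KO and 2.22 ± 0.16 in WT), with 28.5 to 32.4 CPM in KO CM against 8.61 to 8.97 in KO control and 19.2 to 27.3 CPM in WT CM against 3.33 to 6.50 in WT control. The subunits of the NDC80 complex, which binds microtubules, stood between: Ndc80 at 1.11 ± 0.19 in KO and 0.79 ± 0.16 in WT, Nuf2 at 1.48 ± 0.15 and 1.41 ± 0.13, Spc24 at 1.17 ± 0.31 and 1.89 ± 0.29, and Spc25 at 0.91 ± 0.14 and 0.75 ± 0.12.

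Kinesins, the motors of chromosome movement and spindle shape, rose in 9 of 9 cases in KO and 8 of 9 in WT. Kif2c, the microtubule depolymerase MCAK of the centromere, had 31.1, 33.8 and 40.5 CPM in KO CM against 10.0, 10.6 and 10.4 in KO control, and 23.5, 28.2, 23.9 and 21.3 CPM in WT CM against 4.19, 5.46, 4.98 and 5.92 in WT control (1.76 ± 0.13 in KO and 2.23 ± 0.12 in WT). Kif23, the MKLP1 motor of the spindle midzone, was the exception: 57.4, 60.1 and 62.6 CPM in KO CM against 42.3, 39.8 and 39.1 in KO control, but 44.9, 54.4, 42.3 and 44.6 CPM in WT CM against 38.7, 40.8, 43.5 and 43.9 in WT control. In KO its CM libraries all lay higher (0.57 ± 0.09, edgeR adjusted p = 6.9e-05), while in WT the groups overlapped (0.16 ± 0.07, edgeR adjusted p = 0.113). With WT libraries 1 and 2 alone Kif23 passed in WT too (0.32, edgeR adjusted p = 0.00989). Its partner in the centralspindlin complex, Racgap1, rose in both (1.49 ± 0.14 in KO and 1.23 ± 0.12 in WT).

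The 7 spindle microtubule proteins all rose, with medians of 1.70 in KO and 1.76 in WT and no change below 1.33 in either. Tpx2, the activator of Aurora A, was at 64.9 to 74.2 CPM in KO CM against 19.6 to 24.4 in KO control and at 45.0 to 55.2 CPM in WT CM against 13.4 to 19.6 in WT control. Aspm, a spindle pole protein gene, changed by 1.70 ± 0.15 in KO and 2.11 ± 0.13 in WT, and Ckap2l had the largest KO change of the 51 (2.14 ± 0.16). Cytokinesis genes, which build the contractile ring, rose in 3 of 3 cases in both genotypes, with Anln (anillin) at 53.5 to 61.4 CPM in KO CM against 15.03 to 18.3 in KO control (1.71 ± 0.10) and 35.3 to 44.3 CPM in WT CM against 12.6 to 13.6 in WT control (1.56 ± 0.09). Top2a, the decatenating topoisomerase, was at 179, 184 and 214 CPM in KO CM against 60.1, 51.0 and 59.9 in KO control (1.76 ± 0.11), and at 117, 136, 116 and 131 CPM in WT CM against 47.5, 39.9, 47.3 and 55.1 in WT control (1.39 ± 0.09). Mki67, the gene of the proliferation marker Ki-67, changed by 1.82 ± 0.10 in KO and 1.66 ± 0.08 in WT. Depdc1a was near the floor of the set without CM, at 2.72 to 3.12 CPM in KO control and 0.717 to 2.12 in WT control, and reached 9.94 to 13.2 CPM in KO CM and 5.75 to 6.74 in WT CM (1.91 ± 0.24 and 2.22 ± 0.22).

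**Figure D4:**
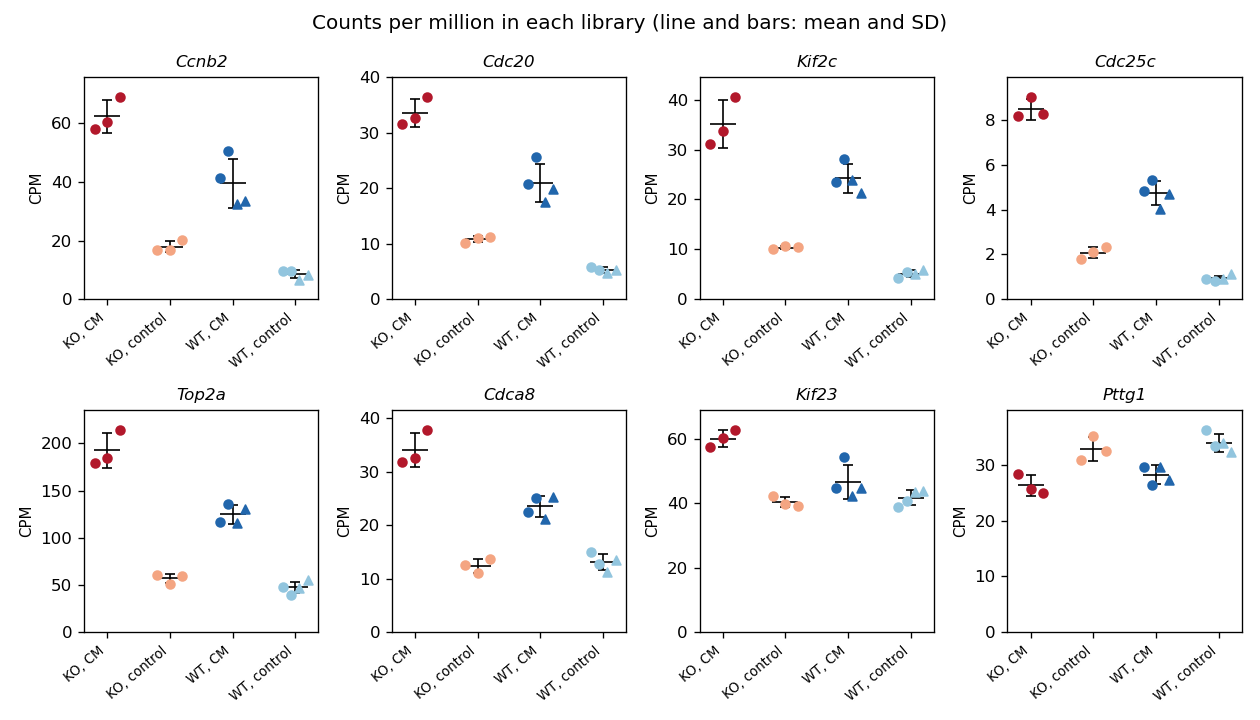
CPM of 8 genes in each library, groups in the order KO CM, KO control, WT CM and WT control, with the mean and SD as line and bars, triangles for WT libraries 3 and 4 and a vertical axis from 0. Ccnb2, Cdc20, Kif2c and Cdc25c show 4 separate levels, Top2a and Cdca8 differ little between the control groups, Kif23 stands highest in KO CM, and Pttg1 runs the other way.

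The second question was whether the genotypes differed in either medium. They did, in 1 direction only among calls: in CM 41 of the 51 genes were called higher in KO than in WT, where 3.10% of tested genes were, and 0 lower, where 1.49% were. In control medium 27 were called higher, where 2.82% of tested genes were, and 0 lower, where 2.50% were. The lower counts were also 0 at an unadjusted p below 0.05 and by DESeq2 in both media. Differences were smaller than those with CM, with a median of 0.55 in CM (range -0.10 to 0.96) and 0.46 in control medium (range -0.08 to 1.30), against 0 over all tested genes. Scaled by library totals alone, 4.55% of tested genes were higher and 1.37% lower in control medium, with 30 of the 51 called higher. At an unadjusted p below 0.05 there were 49 genes in CM and 42 in control medium. Of all 13311 tested genes, 3110 and 3403 passed that bar, counted in either direction. Every KO library lay above every WT library for 46 genes in CM, where 11.3% of tested genes did so, and for 32 in control medium, where 11.1% did. Of the 41 genes called in CM, 24 were also called in control medium (58.5%), and these 24 were 88.9% of the 27 called there. Cenpf, Kif18b and Spc24 were called in control medium alone. Of the 806 exons, which are not separate checks, 791 had a higher group mean in KO than in WT in CM (98.1%) and 720 in control medium (89.3%).

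These counts depended on single libraries more than those of CM. Without KO CM library 3 the count in CM was 13 (with 1.21% of tested genes called higher), without WT CM library 3 it was 19 (1.59%), without WT CM library 4 it was 20 (1.45%) and without KO CM library 2 it was 24 (1.9%). The count in control medium was 15 without KO control library 1 (1.17%), 16 without KO control library 3 (1.18%) and 17 without WT control library 3 (1.25%). The shares over all tested genes thus fell too, from 3.10% in CM and 2.82% in control medium. In these fits the medians of the 51 were 0.48 to 0.57 in CM and 0.39 to 0.44 in control medium. In each of 14 fits that left out 1 library, 13 of the 41 genes stayed called in CM, namely Cdc25c, Melk, Pbk, Bub1b, Cdc20, Kif11, Kif20a, Kif4, Dlgap5, Racgap1, Anln, Top2a and Mki67. In control medium 14 of the 27 did, namely Ccnb1, Ccnb2, Cdc25c, Bub1b, Cdc20, Ube2c, Cenpf, Kif2c, Kif18b, Kif20a, Kif4, Hmmr, Aspm and Arhgef39. Over all 27 alternative fits or thresholds, which include the stricter threshold of 0.01, fewer genes stayed called. In CM 10 of the 41 were left: Melk, Pbk, Cdc20, Kif11, Kif20a, Kif4, Dlgap5, Racgap1, Anln and Mki67. In control medium Ccnb2, Ube2c, Cenpf, Kif2c, Hmmr and Aspm were left, 6 of the 27. Against WT libraries 1 and 2 alone, which resemble the KO libraries in exon shares, 34 genes were called higher in CM and 28 in control medium, where 2.62% and 2.20% of tested genes were. Against WT libraries 3 and 4 alone 50 and 34 were, where 17.8% and 19.5% of tested genes were. Values above 0 were found for 50 and 47 of the 51 genes against libraries 1 and 2, and for 50 and 46 against libraries 3 and 4. The medians were 0.46 in CM and 0.48 in control medium against WT libraries 1 and 2, and 0.64 and 0.42 against WT libraries 3 and 4. Within WT CM, 22 genes were higher in both of libraries 1 and 2 than in both of 3 and 4, where 31.4% of tested genes were, and 2 (Plk1 and Birc5) lower, where 31.3% were. Within WT control, 9 genes were higher in libraries 1 and 2, where 32.4% of tested genes were, and 12 lower, where 33.1% were. The replicate number as a block also joins KO and WT libraries of the same number, for which no link is known. With that block, Birc5 and Ndc80 passed and Nuf2 (0.52, edgeR adjusted p = 0.0553) was lost in CM. In control medium Birc5 and Racgap1 (0.39, 0.0329) passed and Nusap1 (0.48, 0.0538) was lost. Of the 8 macrophage markers 1, Lyz2, was called lower in KO in each medium and 0 higher, with medians over the 8 of -0.04 in CM and 0.01 in control medium. The part of this in the differences was not tested.

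**Figure D5:**
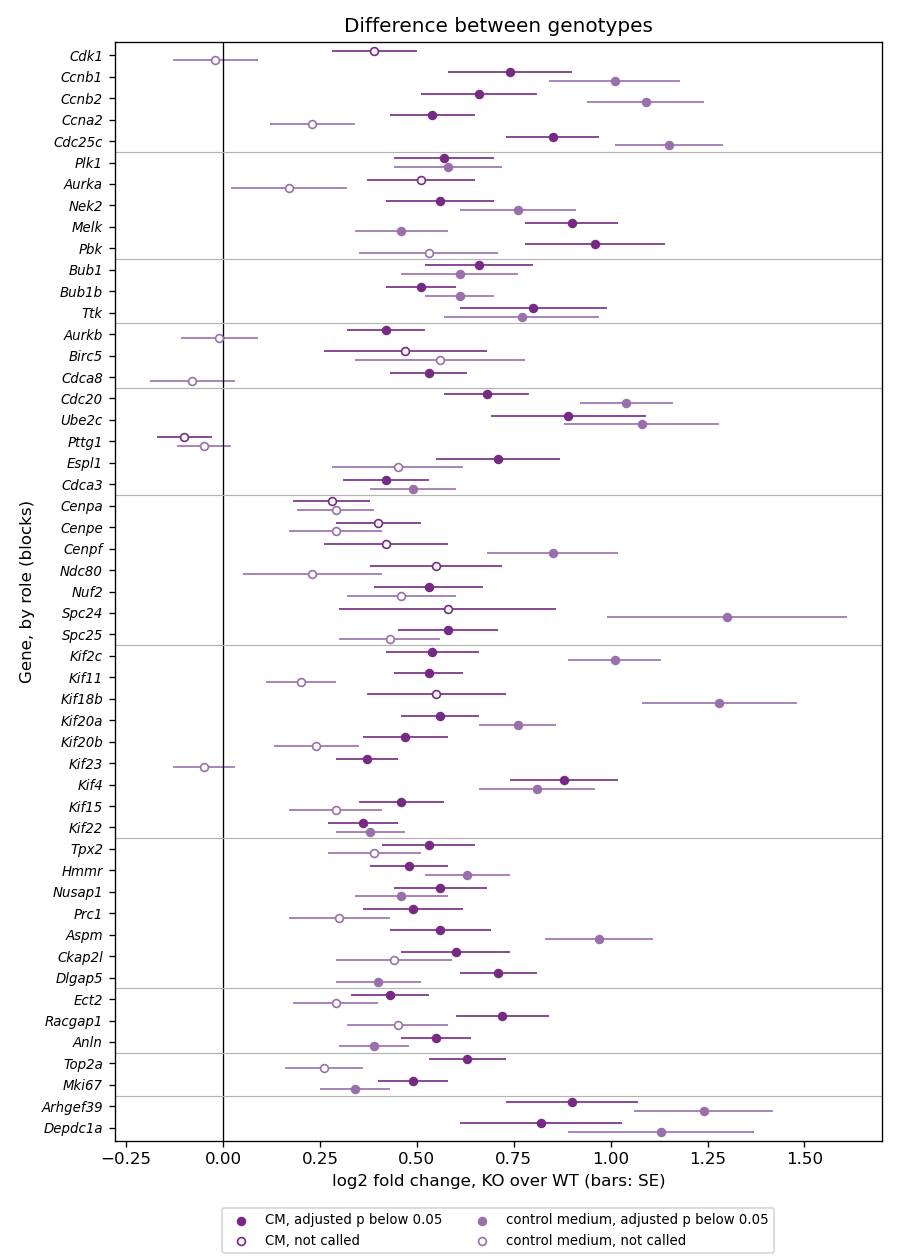
Difference between genotypes for each of the 51 genes (rows, in blocks by role) as log2 fold change of KO over WT with its SE, in CM (dark) and in control medium (light). Filled points passed at an adjusted p below 0.05, 41 in CM and 27 in control medium. Points lie right of 0 for 50 genes in CM and 46 in control medium.

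By role, all 3 spindle checkpoint kinases and both remaining genes, Arhgef39 and Depdc1a, were called higher in KO in both media. All 7 spindle microtubule proteins were called in CM and 4 in control medium. Of the 9 kinesins, 8 were called in CM and 5 in control medium. Of the 7 centromere and kinetochore genes, 2 were called in each medium by edgeR, 4 in each by DESeq2, and 6 in each had an unadjusted p below 0.05. Of the 3 passenger complex genes, 2 were called in CM and 0 in control medium by edgeR, as by DESeq2, and 3 and 1 had an unadjusted p below 0.05. Over all 13311 tested genes, DESeq2 called 5.45% higher in CM and 5.32% in control medium. An unadjusted p below 0.05, in either direction, was met by 3110 and 3403 of them. Birc5 was not called in either medium, but it passed in both with the replicate block (0.64, edgeR adjusted p = 0.019, in CM and 0.79, 0.0102, in control medium), with the split of the WT libraries as a term (0.77, 0.00222, and 0.91, 0.00174) and against WT libraries 1 and 2 alone (0.64, 0.00192, and 1.15, 3.85e-05). The split term marks WT libraries 3 and 4, so with it KO is set mainly against WT libraries 1 and 2. Against WT libraries 3 and 4 alone Birc5 passed in CM (0.34, edgeR adjusted p = 0.0378) but not in control medium (0.18, 0.293).

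In control medium the 4 smallest p-values were those of Cdc20 (1.04 ± 0.12, edgeR adjusted p = 0.00013), Kif2c (1.01 ± 0.12, 0.000313), Cdc25c (1.15 ± 0.14, 0.000371) and Kif20a, the midzone motor MKLP2 (0.76 ± 0.10, 0.000777). With only the most-counted exon of each gene, Kif2c stayed called. Cdc20 (0.81, edgeR adjusted p = 0.0786), Cdc25c (1.19, 0.066) and Kif20a (0.48, 0.0873) then lost their calls. For Cdc20, Kif2c and Cdc25c, whose values in each library stand above, no KO control library reached down to a WT control library. Kif20a was at 26.2, 26.1 and 24.8 CPM in KO control against 14.2, 16.8, 13.0 and 16.7 in WT control. Ccnb2 (1.09 ± 0.15, edgeR adjusted p = 0.00122) and Ube2c (1.08 ± 0.20, 0.00802) differed to a like degree. Kif20a overlaps Cdc23 on the opposite strand and Cdc20 overlaps Elovl1. Libraries came from a stranded kit per the labels' protocols, but the strand setting of the counting is not given in the sources used here, so reads of such partners cannot be told apart. The same holds for Ccna2 (Exosc9), Cdca8 (9930104L06Rik), Kif4 (Pdzd11), Nusap1 (Oip5) and Prc1 (Rccd1).

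At the other end, 5 genes had values at or below 0 in control medium, all without a call: Cdca8 (-0.08 ± 0.11), Kif23 (-0.05 ± 0.08), Pttg1 (-0.05 ± 0.07), Cdk1 (-0.02 ± 0.11) and Aurkb (-0.01 ± 0.10). Top2a, at 60.1, 51.0 and 59.9 CPM in KO control against 47.5, 39.9, 47.3 and 55.1 in WT control, overlapped between the genotypes (0.26 ± 0.10, edgeR adjusted p = 0.127).

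In CM the smallest p-values were those of Melk, a kinase gene of dividing cells (0.90 ± 0.12, edgeR adjusted p = 0.00059), Dlgap5, which encodes the microtubule stabilizer HURP (0.71 ± 0.10, 0.00151), Cdc25c (0.85 ± 0.12, 0.00151) and the chromokinesin gene Kif4 (0.88 ± 0.14, 0.00279). Melk was at 16.1, 16.1 and 19.0 CPM in KO CM against 8.65, 9.40, 9.36 and 9.12 in WT CM. Kif4 was at 22.1, 20.5 and 27.1 CPM in KO CM against 11.4, 14.3, 12.9 and 11.9 in WT CM, and Dlgap5 at 29.3, 32.8 and 35.6 CPM against 18.3, 23.0, 17.8 and 20.6. None of the 3 overlapped between genotypes. Top2a, which had not been called in control medium, was called in CM (0.63 ± 0.10, edgeR adjusted p = 0.00281). This contrast between media depended on the libraries and exons used. When WT was limited to libraries 1 and 2, Top2a passed in control medium (0.39, edgeR adjusted p = 0.0422) and in CM (0.61, 0.00247). When only the most-counted exon of each gene was used, its call in CM was lost (0.26, edgeR adjusted p = 0.382). The genes not called in CM were Cdk1, Aurka, Birc5, Pttg1, Cenpa, Cenpe, Cenpf, Ndc80, Spc24 and Kif18b, with values from -0.10 (Pttg1) to 0.58 (Spc24). Of these, Ndc80 passed with the replicate block (0.63, edgeR adjusted p = 0.0268) and with the split of the WT libraries as a term (0.68, 0.0161), and Cenpe with that term (0.40, 0.0375). DESeq2 called Cdk1, Aurka, Cenpe, Ndc80 and Kif18b, and against WT libraries 3 and 4 alone all but Pttg1 passed.

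The third question was whether CM changed the genes by a different amount in KO than in WT. By edgeR's test of this interaction 0 of the 51 genes passed, as did 0 of all 13311 genes. At an unadjusted p below 0.05 there were 10 of the 51 and 1050 of all genes, and DESeq2 called 1 of the 51, Cdca8. The 51 values had a median of 0.07 and ran from -0.73 to 0.61, with 29 above 0 and 22 below. The smallest p-values were those of Cdca8 (0.61 ± 0.15, edgeR adjusted p = 0.283), Kif23 (0.42 ± 0.11, 0.33), Aurkb (0.43 ± 0.14, 0.42) and Kif2c (-0.47 ± 0.17, 0.482). Cdca8 passed with the split of the WT libraries as a term in the fit (0.61, edgeR adjusted p = 0.0379) and with DESeq2 (0.62, adjusted p = 0.0251). Kif23 passed against WT libraries 3 and 4 alone (0.58, edgeR adjusted p = 0.00851). With no call by edgeR, the values do not show that the 51 genes responded alike in the 2 genotypes.

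Other genes of cell division, taken from lists chosen by their function, were measured beside the 51, and their counts stand against 20.0% of tested genes called higher and 18.2% lower with CM in KO, and 19.3% and 18.0% in WT. The list of mitotic entry regulators also holds spindle protein genes. Of its 15 genes, 12 rose with CM in KO and 11 in WT, with 0 lower in either. They include Ckap2, a spindle protein gene (1.39 ± 0.12 in KO and 1.64 ± 0.11 in WT), and Cdc25b, the sister phosphatase gene of Cdc25c (1.36 ± 0.08 and 0.98 ± 0.07). Of 34 other centromere and kinetochore genes, 21 rose and 1 fell with CM in KO, and 20 rose and 0 fell in WT. Condensin subunit genes rose in 6 of 8 cases in KO and 5 in WT, led by Ncapd2 (1.50 ± 0.14 and 1.56 ± 0.12). Ncapg2, which rose slightly with CM (0.29 ± 0.05 in KO and 0.21 ± 0.04 in WT), was lower in KO than in WT in CM (-0.32 ± 0.05, edgeR adjusted p = 0.00151) and in control medium (-0.41 ± 0.05, 0.00017). Of 9 other cytokinesis genes 4 rose with CM in each genotype, namely Cep55, Cit, Iqgap3 and Kif14.

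In further lists fewer members were called with CM, some of them near the share over all genes. Of 17 APC/C subunits and regulators, 7 rose and 2 fell with CM in KO and 3 rose and 1 fell in WT, with medians of 0.08 and 0.07, and the 3 of 17 higher in WT lie near that share. Cohesin and its regulators had 6 of 15 higher and 1 lower in KO and 4 higher and 3 lower in WT, where the shugoshin genes Sgo1 (1.80 ± 0.25 in KO and 1.56 ± 0.22 in WT) and Sgo2a (1.35 ± 0.18 and 1.15 ± 0.15) rose. Of 5 other checkpoint genes 1, Mad2l1, rose in each genotype (0.93 ± 0.13 and 0.75 ± 0.11). S phase genes had 16 of 34 higher and 2 lower in KO and 11 higher and 4 lower in WT, with medians of 0.29 and 0.10. Against the direction of most called S phase genes, the replication helicase gene Mcm6 fell with CM in both (-0.49 ± 0.07 in KO and -0.71 ± 0.06 in WT), as did the clamp gene Pcna (-0.34 ± 0.08 and -0.45 ± 0.07). Among 20 genes of DREAM, MuvB and the E2F family, 8 rose and 2 fell in KO and 3 rose and 5 fell in WT, the 3 of 20 again near the share over all genes.

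Foxm1, the factor that acts with MuvB at CHR elements, was at 15.8, 15.1 and 19.5 CPM in KO CM against 5.91, 5.52 and 6.23 in KO control (1.52 ± 0.14), and at 10.7, 13.1, 10.6 and 10.8 CPM in WT CM against 3.91, 4.25, 3.15 and 4.65 in WT control (1.50 ± 0.12). It was higher in KO than in WT in CM (0.58 ± 0.13, edgeR adjusted p = 0.018) and in control medium (0.56 ± 0.13, edgeR adjusted p = 0.0283). Mybl2, the gene of B-MYB, was much weaker, at 2.87 ± 0.728 CPM in KO CM against 1.79 ± 0.276 in KO control (SD, n = 3 each) and 2.04 ± 0.41 CPM in WT CM against 1.90 ± 0.538 in WT control (SD, n = 4 each). Among 7 CDK inhibitors, 2 rose and 3 fell with CM in KO and 2 rose and 2 fell in WT, with Cdkn2d highest in change (1.50 ± 0.10 and 1.55 ± 0.09) and Cdkn1c lowest (-1.76 ± 0.23 and -1.87 ± 0.19).

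Between genotypes, 3.10% of tested genes were called higher and 1.49% lower in KO in CM. There KO exceeded WT in 9 of 34 other centromere and kinetochore genes, 7 of 15 genes of the mitotic entry list, 4 of 8 condensin subunits, 4 of 9 other cytokinesis genes and 11 of 34 S phase genes. It also did so for 2 of 20 genes of DREAM, MuvB and the E2F family (E2f7 and Foxm1), 2 of 7 CDK inhibitors (Cdkn1a and Cdkn2c) and 1 of 5 other checkpoint genes (Bub3). Ncapg2 and the CDK inhibitor gene Cdkn1b were lower in KO in CM. In control medium, where 2.82% of tested genes were higher and 2.50% lower, KO exceeded WT in 3 genes of the mitotic entry list, 1 condensin subunit (Ncapd2), 3 other cytokinesis genes, 1 S phase gene (Tk1), 1 gene of the DREAM list (Foxm1) and 2 CDK inhibitors (Cdkn1a and Cdkn2c), while Mis12, Ncapg2, Rbl1 and Cdkn1c were lower. By edgeR 0 of 17 APC/C genes and 0 of 15 cohesin genes were called in either medium. Of all 13311 tested genes, 3110 in CM and 3403 in control medium had an unadjusted p below 0.05, in either direction. DESeq2 called 5.45% of them higher and 3.7% lower in CM, and 5.32% higher and 5.96% lower in control medium. The counts that follow stand against these shares. At an unadjusted p below 0.05, 4 APC/C genes were higher and 2 lower in CM, and 0 higher and 1 lower in control medium, and DESeq2 called 2 higher in CM and 1 lower in control medium. For cohesin the unadjusted counts were 4 higher and 2 lower in CM and 3 higher and 5 lower in control medium, and DESeq2 called 2 higher in CM and 3 lower in control medium. In control medium the other centromere and kinetochore list had 0 higher by edgeR, 7 at an unadjusted p below 0.05 and 3 by DESeq2, and the other checkpoint list had 0, 1 and 0.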

How the data were processed

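Total RNA of 14 macrophage cultures was sequenced as paired reads after a stranded mRNA kit, per the labels' protocols. The deposited values are raw counts per exon. Per the submitters' processing notes, HISAT2 and mm10 were used, while versions, counting tool, annotation and strand setting are not given in the sources used here. The table holds 427386 exon entries, of which 196941 repeat another entry of the same gene (48.6% of the count total) and were removed; 0 entries name no gene. Distinct exon counts were summed per gene, so a fragment over several exons can count more than once. The labels of the samples give the groups and the replicate numbers.

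The quasi-likelihood F test of edgeR 4.0.16 (R 4.3.3) was run after TMM scaling and a filterByExpr filter with 10 as minimum count, in 1 fit of the 4 group means over 14 libraries, which gave 5 comparisons over 13311 genes. P-values were adjusted by Benjamini-Hochberg within a comparison, with calls at an adjusted p below 0.05. The fit was tested on simulated data. Depth was 40.2 to 85.8 mega-counts per library, and the lowest count of a member in a library was 33. Alternatives were DESeq2 1.42.0, other scalings, filters, thresholds, exon choices and library sets, and leaving out each library. Deviations from the group means correlated with 0.62, 0.58, 0.71 and 0.72 between WT libraries of the same number in the 2 media, above the limit of 0.1, and with 0.08, -0.07 and 0.09 in KO. WT libraries 1 and 2, and 3 and 4, correlated about as well across numbers (0.55 to 0.69). A pairing of WT libraries by number therefore cannot be told from the split of the WT libraries. No 2 libraries agreed within sampling noise. Promoters are from RefSeq (GRCm38.p6) and overlapping genes from GENCODE M21. The members and all gene lists were chosen with earlier results of these data known. Named genes are, for each role, the one with the highest mean CPM and the one with the largest change with CM in WT, and the 4 with the smallest p in each comparison between genotypes and in the interaction; other genes named in the text were chosen after their values were seen.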

Additional observations from a re-analysis of the deposited data

Results flagged for a closer look

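In the WT groups of 4 libraries, 1 value of 2 genes lay far from the other 3, among 102 groups checked, a rule that chance alone meets in about 1 group in 20. Aurka, the Aurora A kinase gene, was lowest in WT control library 3, at 4.43 CPM against 5.30, 5.36 and 5.38 CPM in libraries 1, 2 and 4. Arhgef39 was highest in WT CM library 2, at 5.22 CPM against 3.66, 3.51 and 3.70 CPM in libraries 1, 3 and 4.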

How the results depend on the processing

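The counts of the 51 genes called with CM were 50 higher and 1 lower in KO and 48 higher and 1 lower in WT in all alternatives run, except that with WT libraries 1 and 2 alone Kif23 passed in WT too, with the most-counted exon of each gene Pbk did, and with WT libraries 3 and 4 alone 0 were lower in WT. For KO over WT in CM, 41 were higher in the fit reported (with 3.10% of tested genes), 15 at an adjusted p below 0.01 (1.06%) and 23 with the most-counted exon of each gene (2.17%), and leaving out 1 library gave 13 to 43 (1.21% to 3.52%). For KO over WT in control medium, 27 were higher in the fit reported (with 2.82% of tested genes), 15 in a fit of the compared groups alone (1.37%), 13 at an adjusted p below 0.01 (0.834%) and 11 with the most-counted exon (1.84%), and leaving out 1 library gave 15 to 29 (1.04% to 6.31%). The interaction had 0 calls in the fit reported and 1 higher with DESeq2 (Cdca8), with WT libraries 3 and 4 alone (Kif23) and with the library split as a term (Cdca8). The cause of these moves was not tested, beyond the lower counts that the stricter threshold brings by construction. With the replicate number as a block the counts were 42 higher in KO in CM, 28 in control medium and 0 for the interaction, and those with CM kept 50 and 48, so the block changed no count by over 1.5 times. The block is not a test of pairing, since it also joins KO and WT libraries of the same number. The other counts stayed within 1.5 times those reported, and no called gene turned its direction in the alternatives run, while the median of the interaction ran from -0.01 to 0.17. Depth limits Spc24, Cdc25c and Depdc1a most, which had libraries with 44, 42 and 33 counts.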
